A study of Mus musculus with 6 samples.

Results

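The heat shock and DNAJ chaperone genes were compared between primary mouse mammary epithelial cells (MEC) and tumor cell lines that lack the JNK genes *Mapk8* and *Mapk9* (MEKO). Members were taken by gene name from the deposited expression table. They were the HSP70 and HSP110 (*Hspa*, *Hsph1*), HSP90 (*Hsp90*), small heat shock protein (*Hspb*), HSP60 and HSP10 (*Hspd1*, *Hspe1*) and DNAJA, DNAJB and DNAJC genes, with pseudogene names left out. The rule found 72 genes among 37755 entries of the table. The 3 MEC libraries came from C57/Bl6J mice of genotype WAPCre+, with cells of 3 to 5 virgin females of 10 to 12 weeks plated on collagen I and harvested near confluence. The 3 MEKO libraries came from breast tumor cell lines 199, 233 and 336, of genotype Mapk8KO Mapk9KO Cre+ on the same strain background, each grown out of a tumor for 2 passages on collagen and then on ordinary dishes. Both groups carry the *Wap*-Cre transgene, whose promoter is switched on in luminal cells in late pregnancy and lactation. The study bred females at 10 to 12 weeks and watched them for tumors after weaning. The tumor donors were thus parous and older than the MEC donors. JNK loss, tumor origin, donor age and parity, medium and time in culture changed together between the groups and cannot be told apart. Each line is a single culture with 1 library. The study describes the MEC preparations and the lines as independent of each other.

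Chaperones bind unfolded or partly folded proteins and hold or refold them. HSP70 proteins cycle between ATP and ADP while gripping a client, DNAJ proteins deliver clients to them and trigger ATP hydrolysis through a J domain, and HSP110 proteins exchange the nucleotide. HSP90 acts later on kinases, receptors and other clients, small heat shock proteins hold clients without ATP, and HSP60 with its HSP10 lid folds proteins inside a barrel in the mitochondrial matrix. Many of these genes are transcribed from heat shock elements bound by the factor HSF1, and chaperones of the endoplasmic reticulum (ER) from ER stress response elements. JNK itself is a stress-activated kinase that phosphorylates JUN.

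The promoter letters that stand behind these 2 programs are shown for the genes whose values are given below. They were read from RefSeq windows of 300 bases (250 before each start site and 50 after it, build GRCm38.p6), and 58 of the 72 genes had a window. The 3-unit heat shock element (GAA, TTC and GAA, or their complements, with 2 free bases between units, searched on both strands) was in the windows of 4 of the 58 genes (6.90%), against 0.662% of all genes with a window. *Hspd1* and *Hspe1*, for HSP60 and HSP10, lie head to head and share 1 such stretch. With 1 of the RefSeq start sites of *Hspd1*, 215 bases lie between the starts. The whole gene bounds, chr1:55077835-55088243 and chr1:55088132-55091307, overlap, and the stretch lies inside those of *Hspd1*. The others were *Hsph1* (HSP110) and *Dnajb6*. The *Hsph1* stretch lies downstream, at positions 10 to 34 counted from 1 of its start sites. That of *Dnajb6* lies 28 to 52 bases before 1 of its start sites. Capitals mark the units with the free bases between them, and flanking bases are in lower case.
Hspe1, chr1:55088053-55088082, + strand: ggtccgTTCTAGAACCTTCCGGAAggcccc
Hsph1, chr5:149636282-149636306, - strand: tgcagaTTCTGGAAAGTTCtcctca
Dnajb6, chr5:29735846-29735870, + strand: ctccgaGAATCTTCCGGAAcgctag
The *Hspe1* stretch holds 4 units in a row, and read on the other strand it lies 121 to 150 bases before that *Hspd1* start.

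The shorter 2-unit form GAANNTTC, which lies inside every 3-unit match, was in the windows of 14 of 58 members (24.1%) and of 9.04% of all genes. It is shown for *Hspb1*, the most abundant small heat shock protein gene here, which has 2 copies, and for *Hspa1a* and *Hspa1b*, the heat-inducible HSP70 genes.
Hspb1, chr5:135887802-135887829, + strand: GAAGTTTCcagatgggggcaGAACCTTC
Hspa1a, chr17:34972243-34972270, - strand: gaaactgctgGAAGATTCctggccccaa
Hspa1b, chr17:34959325-34959352, - strand: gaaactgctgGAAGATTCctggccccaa
The *Hspa1a* and *Hspa1b* stretches are identical, as are 296 of the 300 bases of their windows. The ER stress response element (CCAAT and CCACG with 9 free bases between them, on either strand) was in the windows of 3 of 58 members (5.17%), against 0.137% of all genes. These were *Hspa5* (BiP, the HSP70 of the ER), *Hsp90b1* (GRP94, its HSP90) and *Dnajc3*. Capitals again mark the whole element with its free bases.
Hspa5, chr2:34772020-34772048, + strand: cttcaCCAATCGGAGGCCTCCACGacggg
Dnajc3, chr14:118937822-118937850, + strand: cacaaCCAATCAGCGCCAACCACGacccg
A match describes the letters only, and binding was not measured.

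Expression was given as fragments scaled by transcript length in kilobases and by mapped fragments (FPKM), so levels of different genes are per length and can be set side by side. The table holds no read counts, so the depth behind each value cannot be read from it. The targeted genes were low but not at 0 in the lines. *Mapk8* was at 23.1, 25.1 and 19.2 FPKM in MEC and at 5.93, 3.12 and 1.37 in lines 199, 233 and 336, and *Mapk9* at 24.4, 21.5 and 22.1 against 7.62, 3.15 and 3.07. Summed FPKM of 7 epithelial markers were 5797 to 9601 in MEC and 1321 to 1971 in MEKO. By the rule given below, 4 of the 7 were called lower (57.1%, against 7.26% of all entries), among them *Krt8* and *Epcam*. The basal keratins *Krt5* and *Krt14* stood at 608 and 521 FPKM in line 199, and at 1.33 and 7.36 in line 233 and 15.3 and 24.0 in line 336. Summed levels of 9 fibroblast markers were 392 to 563 in MEC, 1432 in line 199, and 3.09 and 4.38 in lines 233 and 336. The sum in line 199 was mostly *Col1a1*, *Col1a2* and *Postn*, at 600, 408 and 321 FPKM. There *Col1a1*, *Col1a2*, *Col3a1*, *Pdgfra* and *Pdgfrb* were above every MEC library, and *Postn* was within the MEC range. *Dcn*, *Lum* and *Thy1*, at 0.311, 0.0264 and 11.1 FPKM in that line, were below every MEC library. Muscle markers summed to 26.8 to 50.4 against 2.39 to 4.36, mostly *Myh11* in MEC and *Mylpf* in MEKO, with *Myh4* at 0 in every library. Leukocyte markers summed to 21.7 to 41.8 against 0.961 to 24.9. The sum of 24.9, in line 336, was mostly *Cd68*, at 23.5 FPKM. *Csf1r* was at 1.41, *Lyz2* at 0.0182 and *Ptprc* at 0 in that line, each below every MEC library. Endothelial markers summed to 1.73 to 15.1 against 0.164 to 0.430, and adipocyte markers to 1.48 to 11.8 against 0.0898 to 1.19. In such bulk libraries, fewer cells of a type and less RNA per cell cannot be told apart.

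The share of chaperone genes that passed the threshold between MEC and MEKO was near that of all entries. Of the 72 members, 59 had a mean of at least 1 FPKM over the 6 libraries and were tested. A gene was called where limma's adjusted p was under 0.05 and the log2 fold change (MEKO minus MEC, on log2(FPKM + 1)) was beyond 0.75. By this rule 5 members were called (8.47%), against 9.9% of the 12461 entries tested. *Hspa9* and *Hspd1* were called higher (all entries, 2.64%) and *Dnajc12*, *Dnajc6* and *Dnajb5* lower (all entries, 7.26%). *Dnajc12* and *Dnajc6* reached the mean of 1 FPKM through MEC alone, so they could come out only as lower. With quantile-normalised values the calls were 4 higher and 1 lower, and over all entries the higher share went from 26.7% to 37.9%. The median member stood at -0.05 and the median entry at 0.01 on the log2 scale, with 27 members above 0 and 32 below. The 3 MEC and 3 MEKO values did not overlap for 14 members that were higher (18.5% of all entries) and 16 that were lower (18.7%), together 50.8% of members and 37.2% of entries. Of these 16, *Dnajc12*, *Dnajc6* and *Dnajc28* had a MEKO mean under 1 FPKM. They passed the filter through MEC and could add only to the lower count. The share of members at an unadjusted p under 0.05 was 42.4%, against 28.2%. The members as a whole made up 0.830% to 0.927% of summed FPKM in MEC and 0.970% to 1.12% in MEKO.

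**Figure D1:**
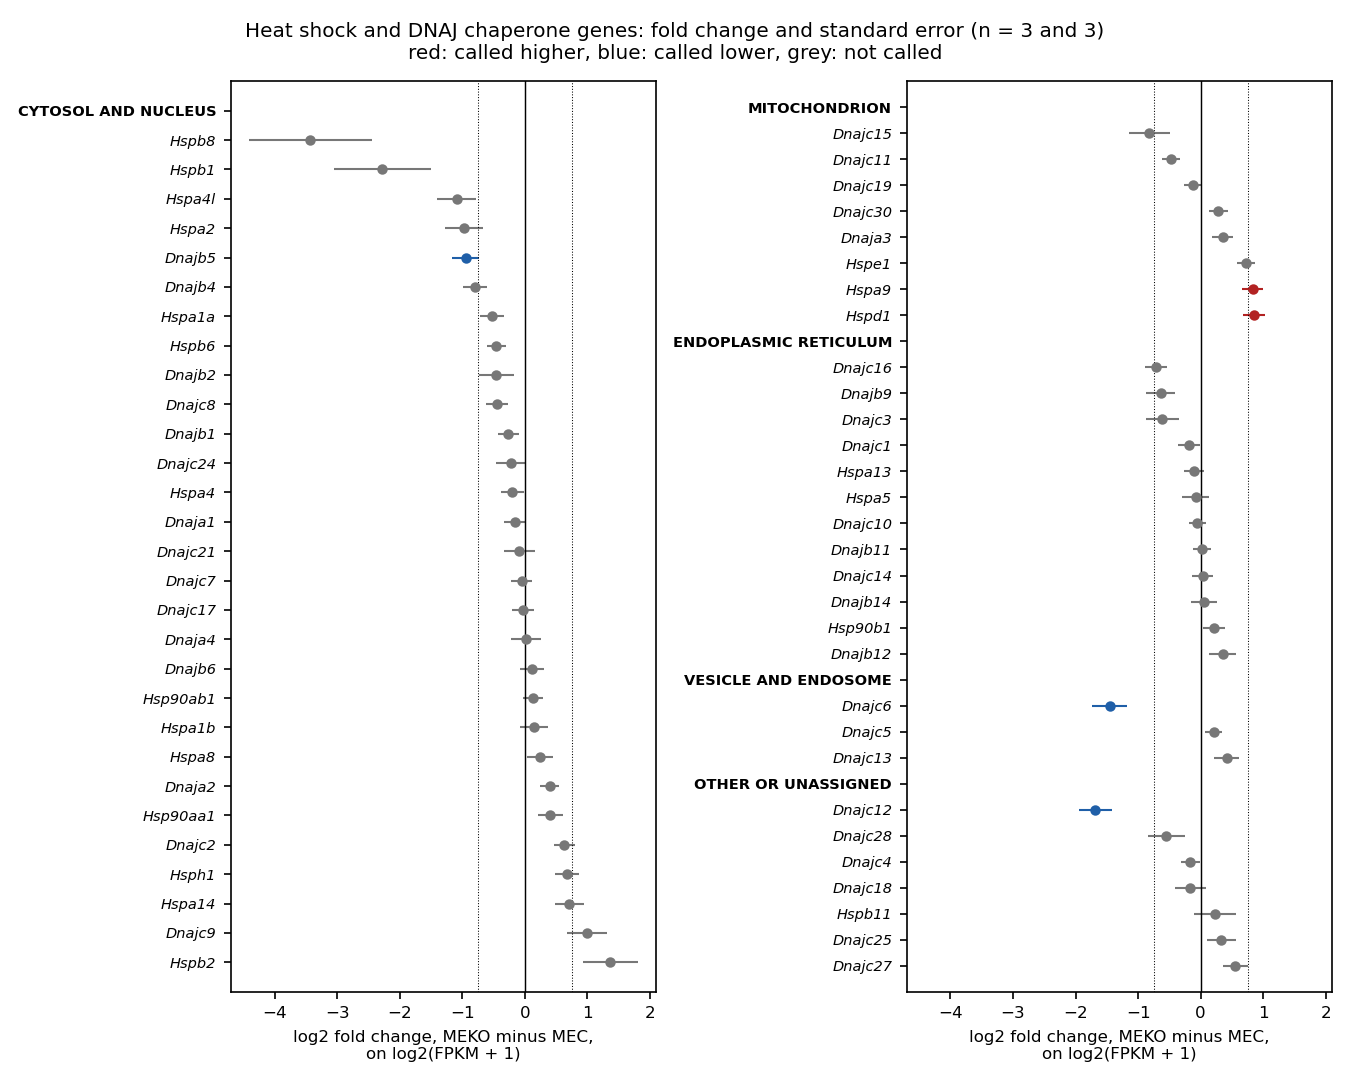
Log2 fold change (MEKO minus MEC, on log2(FPKM + 1), horizontal axis) with its standard error for each of the 59 tested members, grouped by compartment, with dotted lines at 0.75 on either side of 0 and colour for calls. *Hspa9* and *Hspd1* are the 2 members called higher, 3 are called lower, and *Hspb8* and *Hspb1* lie farthest left with wide errors.

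The mitochondrial chaperones held the members called higher. *Hspa9* encodes mortalin, the matrix HSP70 that pulls imported proteins through the inner membrane (chr18:34937414-34954357, build GRCm38). It was at 236, 216 and 173 FPKM in the 3 MEC libraries and at 407, 365 and 338 in lines 199, 233 and 336. Every line lay above every MEC library, by 0.83 ± 0.17 (SE) on the log2 scale (limma adjusted p = 0.0302, exact permutation p = 0.1, two-sided, the smallest that 3 against 3 allow). *Hspd1*, for the HSP60 barrel (chr1:55077835-55088243), was at 180, 197 and 142 FPKM in MEC and at 316, 274 and 348 in MEKO. Again the groups did not overlap, and the difference was 0.86 ± 0.18 (limma adjusted p = 0.0328). *Hspe1*, for the HSP10 lid (chr1:55088132-55091307), was at 315, 287 and 277 against 491, 431 and 534 FPKM. It had the smaller adjusted p of 0.0274 by limma, with 0.72 ± 0.14 just under the fold threshold. All 3 genes were at 147% to 201% of the MEC mean in every line.

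*Hspd1* and *Hspe1* share the heat shock element printed above. The ratio of *Hspe1* to *Hspd1* was 1.72 ± 0.248 (SD, n = 3) in MEC and 1.55 ± 0.0186 in MEKO, and the groups overlapped (exact permutation p = 0.4). Of the 100-base stretches of the transcripts, 26.9% for *Hspd1* and 20.4% for *Hspe1* also occur in other genes, pseudogenes among them, so these levels are less certain than that of *Hspa9*, which shares none. The same limit holds for other members. Of the 72, 11 had over 10% of their stretches in other genes, *Dnaja1* at 14.8% and *Hspa14* at 13.1% among them. The calls of *Hspa9* and *Hspd1* depended on the MEC libraries, as did those over all entries. Over all entries the calls fell from 1234 to 259, 301 and 477 without MEC 1, 2 or 3. Without MEC 1, 2 or 3 in turn, the limma adjusted p of *Hspa9* was 0.0845, 0.110 and 0.0748 and that of *Hspd1* 0.121, 0.0840 and 0.0862, with log2 differences of 0.70 to 0.96. Without line 336 they were 0.0504 and 0.0732, and *Hspa9* without line 233 was 0.0679. With sample weights both adjusted p stayed under 0.05, but the log2 differences of 0.65 and 0.748 were short of the fold threshold. *Hspe1* was called without line 233 (0.81, limma adjusted p = 0.0358) and with quantile normalisation (0.80, limma adjusted p = 0.0138).

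The mitochondrial J proteins did not move with them as a block. *Dnaja3*, the matrix partner of mortalin, was at 19.0, 19.3 and 18.0 FPKM in MEC and 29.0, 20.9 and 23.5 in MEKO, higher in every line but not called (0.35 ± 0.16, limma adjusted p = 0.222). Its entry is joined with *Vasn*. *Dnajc19*, a J protein of the import motor, was at 34.7 ± 3.70 against 31.6 ± 1.11 FPKM (SD, n = 3 and 3), and the groups overlapped. *Dnajc15*, a relative of *Dnajc19* in the inner membrane, was at 44.8, 41.8 and 39.7 in MEC and at 16.7, 40.6 and 18.6 in MEKO. Lines 199 and 336 were far below MEC and line 233 was within its range (-0.82 ± 0.33, limma adjusted p = 0.169, and -1.21 with limma adjusted p = 0.0145 without line 233). *Dnajc11*, of the outer membrane and cristae machinery, was lower in every line at 18.8 ± 1.14 against 26.5 ± 2.22, and *Dnajc30* higher at 17.9 ± 1.68 against 14.5 ± 1.20. Neither passed the test, and both were chosen after their values were seen. In all, the 8 mitochondrial members had a median of 0.32, with 2 called higher (2.64% of all entries) and none lower. The groups did not overlap for 5 that were higher (18.5% of entries) and 1 that was lower (18.7%). Their summed level was 811 ± 82.0 FPKM in MEC and 1286 ± 74.7 in MEKO.

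**Figure D2:**
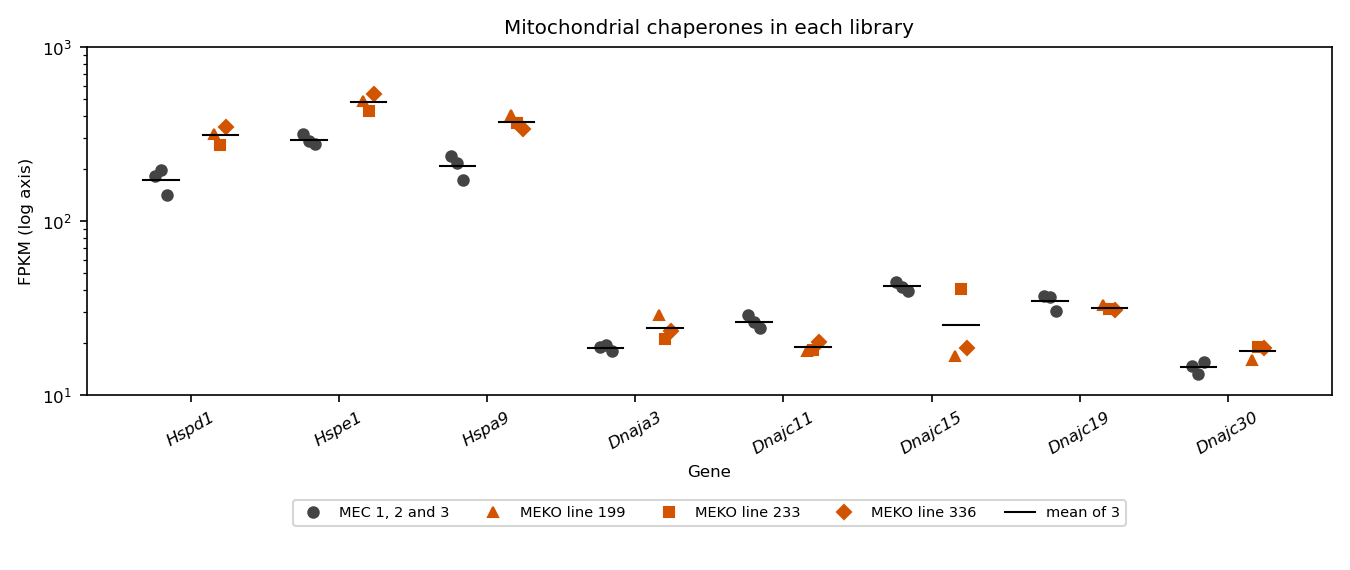
FPKM (log axis) of the 8 mitochondrial chaperone genes in each library, with dots for MEC 1 to 3, a symbol for each MEKO line and a bar at each mean of 3. All 3 lines lie above all MEC values for *Hspd1*, *Hspe1* and *Hspa9*, while line 233 alone sits beside MEC for *Dnajc15*.

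Most genes of the wider mitochondrial list did not pass the test. Of 18 genes of the import motor, translocases and matrix proteases, all 18 had a log2 fold change above 0, as did 6381 of all 12461 entries, and the median was 0.47. The values of 13 of them did not overlap between groups, all higher (18.5% of all entries). Only *Clpp*, the proteolytic core of the matrix protease ClpXP, was called (5.56% of the list, against 9.9% of all entries). It was at 30.3, 29.8 and 26.1 FPKM in MEC and 53.2, 45.5 and 49.1 in MEKO (0.76 ± 0.14, limma adjusted p = 0.0238). *Trap1*, the mitochondrial HSP90, was at 37.3 ± 1.03 against 52.2 ± 9.18 FPKM (0.46, limma adjusted p = 0.127). *Grpel1*, the nucleotide exchange factor of mortalin, named after its values were seen, was at 14.2 ± 0.888 against 23.2 ± 4.03 (limma adjusted p = 0.0653).

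The small heat shock proteins had the widest spread between lines. *Hspb8*, which works with BAG3 in clearing misfolded proteins (chr5:116408491-116422864), was at 31.6, 36.0 and 35.8 FPKM in MEC and at 16.7, 0.127 and 0.785 in lines 199, 233 and 336. Line 199 kept 48.5% of the MEC mean, and lines 233 and 336 kept 0.369% and 2.28%. The difference of -3.43 ± 0.98 did not pass (limma adjusted p = 0.0786), and without line 199 it was -4.64 with limma adjusted p = 0.000838. *Hspb1*, for HSP25, the mouse counterpart of human HSP27 and a chaperone of actin filaments (chr5:135887919-135889563), was at 306, 396 and 374 against 114, 18.7 and 176 FPKM. All 3 lines lay below all MEC libraries, at 31.8%, 5.20% and 49.2% of the MEC mean, but the spread among lines left -2.28 ± 0.78 uncalled (limma adjusted p = 0.121). Without line 233 it was -1.32 with limma adjusted p = 0.0369. A pseudogene, *Hsp25-ps1*, shares many of its sequence stretches (42.7% of them occur in other genes), and reads could be split between them.

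The line that kept *Hspb8*, line 199, had *Krt5*, *Krt14*, *Col1a1*, *Col1a2*, *Col3a1*, *Pdgfra* and *Pdgfrb* above every MEC library. The fibroblast markers were split there, with *Dcn*, *Lum* and *Thy1* below every MEC library and *Postn* within the MEC range. Summed muscle markers were lower in all 3 lines. The part of these markers in the *Hspb1* and *Hspb8* values was not tested. *Bag3*, the partner of HSPB8 from the cochaperone list, was at 32.6, 34.7 and 31.6 in MEC and 20.5, 23.5 and 26.6 in MEKO, a non-overlapping difference that was not called (-0.48 ± 0.15, limma adjusted p = 0.1).

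The other small members went in different directions. *Hspb6*, for HSP20, was at 13.9, 15.8 and 14.8 FPKM in MEC and 11.3, 9.26 and 11.1 in MEKO, lower in every line by less than the fold threshold (-0.45, limma adjusted p = 0.115). *Hspb2* was higher in every line, at 4.12, 2.12 and 3.43 against 5.11, 9.24 and 18.6 (1.37 ± 0.44, limma adjusted p = 0.108). It was called without line 199, at 1.77 with limma adjusted p = 0.0279. *Hspb2* lies head to head with *Cryab*, for alpha-B-crystallin, and 30.2% of its exon length overlaps that gene on the opposite strand. *Cryab* was at 124, 121 and 139 FPKM in MEC and 72.4, 251 and 250 in MEKO, so its 2 higher lines were those with the most *Hspb2*. Whether counting used strand is not given in the sources used here, and the 2 genes' reads may be mixed. *Hspb11*, counted by its name but given no compartment, completes the tested genes, at 15.7, 14.2 and 20.5 FPKM in MEC. In lines 199, 233 and 336 it was at 17.3, 13.2 and 32.9, and the groups overlapped. Over the 5 tested of 8 small members, *Hspb11* included, the median was -0.45 with none called (9.9% of all entries). The summed level was 429 ± 50.0 against 152 ± 95.4 FPKM.

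**Figure D3:**
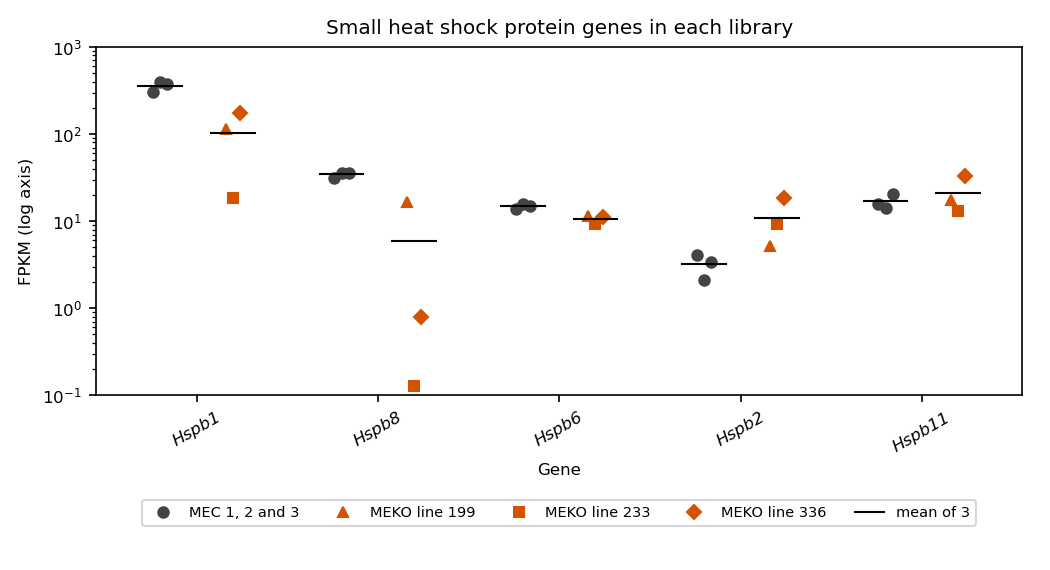
FPKM (log axis) of the 5 tested *Hspb* genes in each library, with *Hspb11* counted by name. Dots stand for MEC 1 to 3, with a symbol for each MEKO line and a bar at each mean of 3. *Hspb1* and *Hspb8* lie below MEC in every line, with line 233 lowest in both, and *Hspb2* lies above MEC in every line.

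The abundant cytosolic chaperones overlapped between the groups. *Hsp90ab1*, the constitutive HSP90 and the highest member in every library, was at 1377 ± 68.2 FPKM in MEC and 1522 ± 214 in MEKO (0.14 ± 0.16, limma adjusted p = 0.598). *Hspa8*, for the constitutive HSC70, was at 627, 560 and 720 against 574, 825 and 895 (0.25 ± 0.21, limma adjusted p = 0.474). *Hsp90aa1*, the inducible HSP90, was at 305, 341 and 297 against 332, 404 and 539, above the MEC range in lines 233 and 336 and inside it in line 199 (0.41, limma adjusted p = 0.240). Its ratio to *Hsp90ab1* was 0.229 ± 0.0289 in MEC and 0.283 ± 0.0753 in MEKO (exact permutation p = 0.4). Both *Hspa8* and *Hsp90aa1* share sequence with other genes, at 62.8% and 47.5% of their stretches.

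The heat-inducible HSP70 genes were low in both groups. *Hspa1b* was at 15.8, 15.1 and 13.8 FPKM in MEC and 20.6, 12.0 and 18.5 in MEKO, and *Hspa1a* at 3.83, 3.58 and 3.42 against 1.91, 2.62 and 2.12. Since 48.6% of the stretches of *Hspa1a* are also in other genes, foremost *Hspa1b*, their sum is the safer value. It was 18.5 ± 1.24 in MEC and 19.3 ± 4.11 in MEKO, and the groups overlapped (exact permutation p = 0.9). Set against *Hspa8*, the sum was 0.0295 ± 0.00498 in MEC and 0.0267 ± 0.0112 in MEKO.

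*Hsph1*, for the exchange factor HSP110, was higher in every line, at 26.0, 26.7 and 35.6 FPKM in MEC and 50.7, 40.1 and 51.3 in MEKO (0.67 ± 0.19, limma adjusted p = 0.0710). *Hspa4*, a second HSP110-type gene, was at 146 ± 18.6 against 128 ± 22.2 and overlapped. Its relative *Hspa4l* was lower in every line, at 13.0, 11.6 and 12.1 against 7.99, 5.79 and 2.90 (-1.09 ± 0.31, limma adjusted p = 0.0804), and was called without line 199 (-1.36, limma adjusted p = 0.0251). The 3 genes of this subfamily therefore stood above, across and below the MEC range.

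*Hspa2*, an HSP70 best known from the testis, was at 12.3, 11.7 and 10.9 FPKM in MEC and 3.88, 4.26 and 9.38 in MEKO. All lines were below MEC, line 336 only slightly (-0.97, limma adjusted p = 0.103, and -1.32 with limma adjusted p = 0.0165 without line 336). *Hspa14*, the HSP70 of the ribosome-associated complex, went the other way at 17.1, 17.2 and 11.2 against 31.2, 21.8 and 23.2 (0.72, limma adjusted p = 0.108). *Dnajc2*, its J partner on the ribosome, chosen after its values were seen, was at 42.6, 41.4 and 31.0 against 56.8, 63.7 and 58.2 (0.64, limma adjusted p = 0.0630). Both partners were higher in every line and neither was called.

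**Figure D4:**
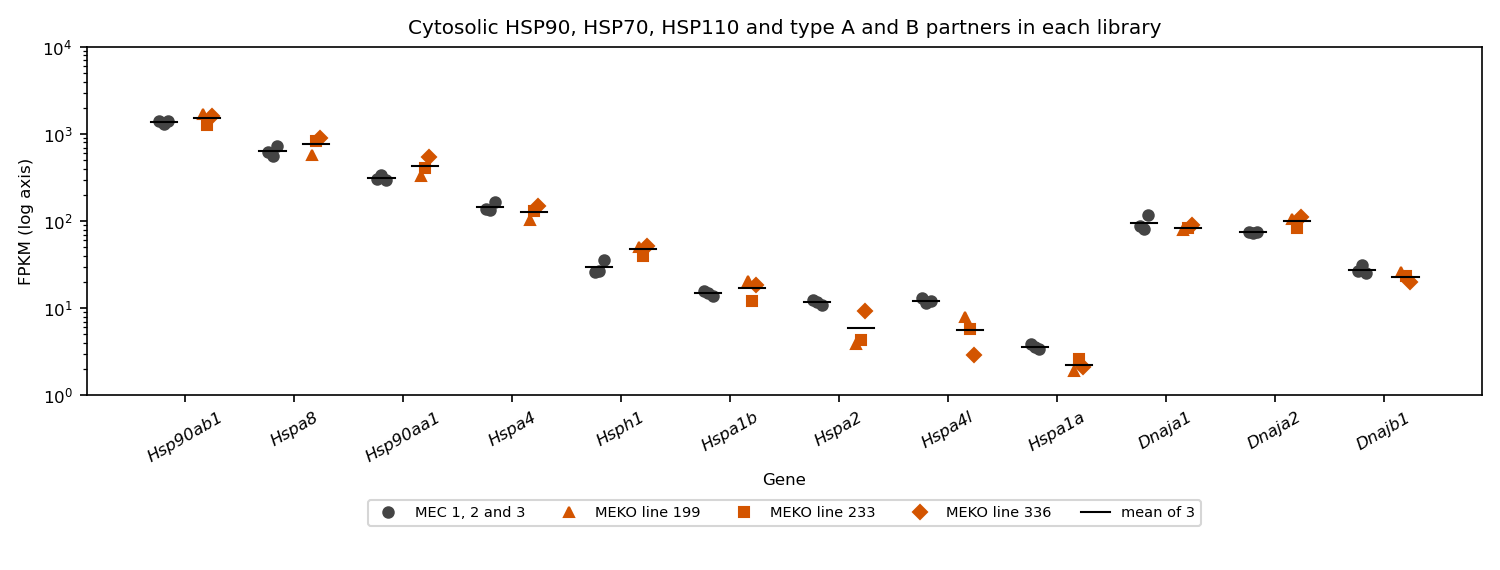
FPKM (log axis) of 12 cytosolic HSP90, HSP70, HSP110 and DNAJ genes in each library, with dots for MEC 1 to 3, a symbol for each MEKO line and a bar at each mean of 3. Levels run from *Hsp90ab1* at the top to *Hspa1a* at the bottom, where, of these 12, *Hsph1* and *Dnaja2* lie above MEC in all lines and *Hspa2*, *Hspa4l* and *Hspa1a* lie below.

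Among the J proteins that feed cytosolic HSP70, *Dnaja1*, *Dnaja2* and *Dnaja4* of type A were not called. *Dnaja1* was at 94.7 ± 19.5 FPKM in MEC and 83.6 ± 5.47 in MEKO, and *Dnaja4* at 8.53 ± 1.09 against 8.88 ± 2.77. *Dnaja2* was at 75.7, 72.9 and 75.7 against 104, 83.6 and 111, outside the MEC range in every line (0.40, limma adjusted p = 0.149). Of *Dnaja4*, 44.1% of the exon length overlaps *Wdr61* on the opposite strand.

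The type B genes included 1 called member, *Dnajb5* (chr4:42949814-42959425), a cytosolic and nuclear J protein. It was at 5.43, 4.14 and 5.73 FPKM in MEC and at 1.72, 2.72 and 2.11 in MEKO. No line reached the lowest MEC value, and the difference was -0.94 ± 0.22 (limma adjusted p = 0.0440). Leaving out any 1 of the 6 libraries ended the call (limma adjusted p from 0.0516 to 0.192), as did quantile normalisation (-0.69) and testing without the filter on low values (limma adjusted p = 0.0910). *Dnajb4*, its close relative, was at 15.7, 19.3 and 19.6 against 12.4, 10.1 and 8.11, lower in every line and narrowly uncalled (-0.79 ± 0.20, limma adjusted p = 0.0539), but called without line 199 (-0.93, limma adjusted p = 0.0237). *Dnajb1*, for the heat-inducible HSP40, was at 26.6, 31.1 and 25.2 against 25.9, 23.2 and 19.8 and overlapped. *Dnajb6*, an aggregation suppressor whose promoter holds a 3-unit element, was at 64.4 ± 2.28 against 70.8 ± 15.3, also overlapping. Of its 100-base stretches, 31.0% also occur in other genes, so its level is less certain. *Dnajb2*, a neuronal J protein, was at 11.5, 11.3 and 13.6 against 5.40, 10.1 and 11.4, low mainly in line 199.

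*Dnajc9*, a J protein that also acts as a histone chaperone, was higher in every line. It was at 18.8, 19.3 and 9.83 FPKM in MEC and 24.2, 42.5 and 30.6 in MEKO, and was not called (1.00 ± 0.32, limma adjusted p = 0.104). Over the 29 tested of 33 cytosolic and nuclear members, 1 was called lower (7.26% of all entries) and none higher, and the median was -0.08. The groups did not overlap for 6 that were higher (18.5% of entries) and 9 that were lower (18.7%). Their summed level was 3518 ± 135 FPKM in MEC and 3633 ± 387 in MEKO.

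In the ER, the main chaperones overlapped between groups. *Hspa5* was at 335, 359 and 302 FPKM in MEC and 385, 348 and 230 in MEKO (-0.08 ± 0.22, limma adjusted p = 0.842), and was +0.14 without line 336, the lowest library. *Hsp90b1* was at 311, 334 and 286 against 401, 398 and 287 (0.21 ± 0.18, limma adjusted p = 0.474), so line 336 was again the lowest of the lines. Their sum was 643 ± 52.8 in MEC and 683 ± 145 in MEKO (exact permutation p = 0.8). *Dnajc3*, the third gene with an ER stress response element here and an inhibitor of the kinase PERK, was at 27.9, 28.6 and 32.7 against 12.8, 25.6 and 20.9, lower in every line and uncalled (-0.61, limma adjusted p = 0.185).

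No J protein of the ER was called. *Dnajb11*, a partner of BiP, was at 57.1 ± 2.38 FPKM in MEC and 58.0 ± 6.97 in MEKO, and *Dnajc10*, a J protein with disulfide reductase activity, at 41.0 ± 0.594 against 39.6 ± 3.38. *Dnajb9*, a target of the unfolded protein response that acts on the sensor IRE1, was lower in every line, at 16.1, 16.3 and 27.0 against 11.4, 13.0 and 11.6 (-0.64 ± 0.23, limma adjusted p = 0.135). *Dnajc16*, a membrane J protein, was at 4.71, 5.05 and 5.76 against 2.55, 2.79 and 2.89. It had a limma adjusted p of 0.0499 with -0.72 ± 0.17, short of the fold threshold, and was called with upper-quartile scaling (-0.76, limma adjusted p = 0.0414). *Dnajb12*, of the ER membrane, was above the MEC range in lines 233 and 336 only, at 22.0 ± 0.737 against 29.0 ± 7.36. *Hspa13*, a microsomal HSP70, was at 17.0 ± 0.194 against 15.8 ± 2.08. None of the 12 ER members was called (9.9% of all entries), and the median was -0.07. The groups did not overlap for 3, all lower (25.0%, against 37.2% of all entries in either direction).

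The ER folding and unfolded protein response list outside the naming rule gave 1 call. *Xbp1*, whose spliced form encodes a transcription factor of that response, was at 62.1, 66.3 and 56.6 FPKM in MEC and 35.3, 39.5 and 32.5 in MEKO (-0.77 ± 0.14, limma adjusted p = 0.0243). FPKM per gene do not separate its spliced form. *Atf6*, a sensor of the response, named after its values were seen, was higher in every line, at 9.12 to 10.9 FPKM in MEC and 15.1 to 20.1 in MEKO, and fell short of the fold threshold (0.73 ± 0.17, limma adjusted p = 0.0456). The 21 tested of 24 genes had a median of -0.17, and 4.76% were called, against 9.9% of all entries. The groups overlapped for 17, and 19.0% did not overlap, against 37.2% of all entries. *Hyou1*, the HSP110 of the ER, was at 50.9, 51.7 and 43.0 against 91.1, 50.3 and 37.2, high in line 199 only.

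The 2 members with the lowest adjusted p among those called lower were expressed at a few FPKM in MEC and near 0 in every line. *Dnajc12*, a cochaperone of the aromatic amino acid hydroxylases (chr10:63382443-63410576), was at 2.27, 2.29 and 4.11 in MEC and 0.248, 0.139 and 0.171 in MEKO. The fold change was -1.68 ± 0.27 (limma adjusted p = 0.0163), and without MEC 1 or MEC 2 the limma adjusted p was 0.0748 and 0.0675. *Dnajc6*, for auxilin, which uncoats clathrin vesicles (chr4:101496648-101642799), was at 1.62, 2.96 and 1.78 against 0.0429, 0.313 and 0.0250 (-1.45 ± 0.28, limma adjusted p = 0.0267). Without MEC 1 its limma adjusted p was 0.103 and without line 336 it was 0.0575, without MEC 2 or MEC 3 its mean was under the filter and it was not tested, and with quantile normalisation or sample weights it was 0.110 and 0.0521. Both genes reached the 1 FPKM filter through MEC alone, and the scale with a pseudocount understates their change. With a filter at a mean of 5 FPKM neither was tested.

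The more abundant vesicle and endosome members were not called. *Dnajc5*, for the cysteine string protein, was at 29.4, 32.9 and 29.3 FPKM in MEC and 37.2, 33.3 and 35.8 in MEKO, and *Dnajc13*, an endosomal J protein, at 11.8, 11.2 and 12.6 against 20.9, 15.2 and 13.3. Every line was above MEC for both, and neither was called. Among members with no assigned compartment, *Dnajc27*, which is joined to a Rab-like domain, was at 1.72, 2.13 and 1.85 against 2.94, 3.00 and 3.84 (0.55 ± 0.20, limma adjusted p = 0.133), and it was called with quantile normalisation (0.90, limma adjusted p = 0.0466). *Dnajc28* was at 1.19, 1.10 and 2.67 against 0.896, 0.595 and 0.780 and uncalled. *Dnajc25*, whose entry is joined with 2 other genes, was at 7.99 ± 1.00 against 10.5 ± 3.05 and overlapped.

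Set against MEC one line at a time, 4 members were lower in all 3 lines and none higher in all 3. A line was counted where it lay outside the range of the 3 MEC libraries and over 0.75 from their mean on the log2 scale, a description with 1 library and no test. Line 199 had 5 members higher and 10 lower (29.8% of all entries either way), line 233 had 3 and 7 (27.4%), and line 336 had 7 and 8 (29.4%). *Dnajc12*, *Dnajc6*, *Hspb1* and *Hspb8* were lower in all 3 lines, 6.78% of members against 8.14% of entries. Of these, *Dnajc12* and *Dnajc6* passed the filter through MEC alone and could be counted only as lower. No member was higher in all 3 by this rule, against 2.66% of entries, and none was higher in 1 line and lower in another. *Hspd1* was counted in lines 199 and 336, *Hspa9* in 199 and 233, and *Hspe1* in 336, all higher, while *Hsp90aa1* was counted in line 336 alone. *Dnajc3* and *Dnajb2* were lower in line 199 alone. In none of the lines did 37 of 59 members meet the rule (62.7%, against 52.0% of entries).

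**Figure D5:**
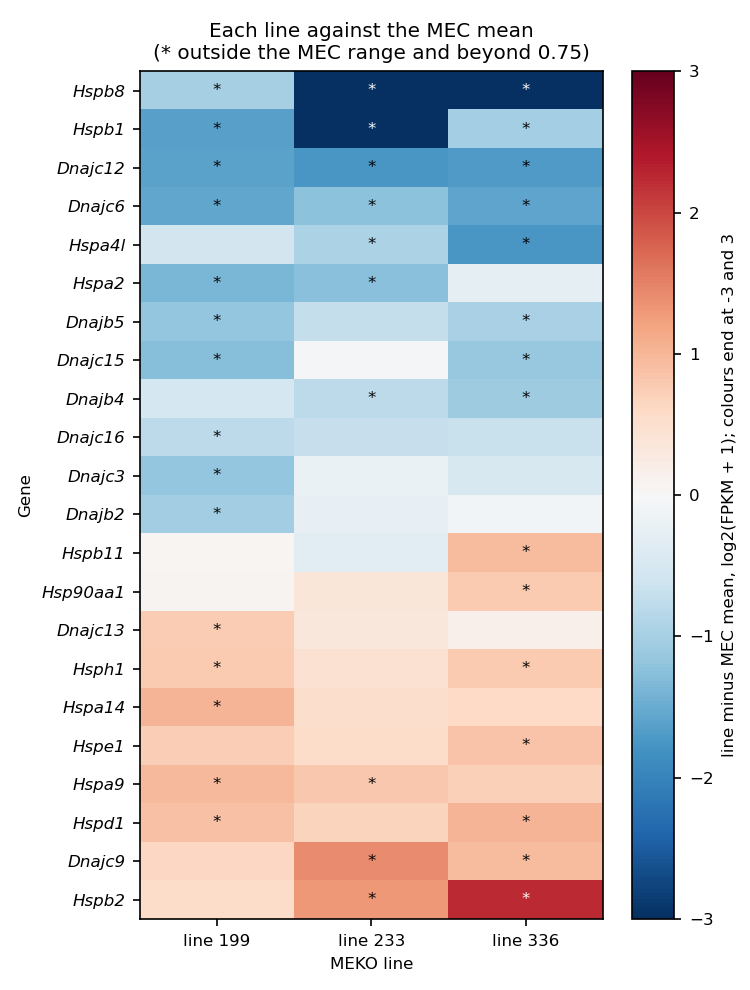
Colour map of the difference of each MEKO line from the MEC mean on log2(FPKM + 1), for the 22 members outside the MEC range and beyond 0.75 in at least 1 line (stars), with colours that end at -3 and 3. *Hspb8*, *Hspb1*, *Dnajc12* and *Dnajc6* carry 3 stars each, and no gene carries stars of both colours.

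The 13 members below the filter were near or at 0, at most 1.77 FPKM in any library. *Dnajc22*, a membrane J protein, was at 1.65, 1.77 and 1.60 FPKM in MEC and 0.0996, 0.118 and 0.741 in MEKO. *Hspb7*, a small heat shock protein of heart and muscle, reached 1.10 in MEC 2 and was listed at 0 in lines 233 and 336. *Dnajb8* was listed at 0 in every library. None of the 13 was tested in the comparison above. *Dnajc22* was called lower when the filter was dropped and when line 336 was left out.

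The regulators of the program were measured too. *Hsf1*, the main heat shock factor, was at 14.4, 13.0 and 14.2 FPKM in MEC and 22.4, 20.1 and 13.2 in MEKO, higher in lines 199 and 233 only (0.36 ± 0.22, limma adjusted p = 0.320). *Hsf2* was at 9.79 ± 0.774 against 9.14 ± 1.40. Neither they nor *Hsbp1*, for a heat shock factor binding protein, was called, and these were the 3 genes tested of the 5 listed. FPKM say nothing of HSF1 protein or its phosphorylation.

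Of 23 cytosolic cochaperones, 1 was called (4.35%, against 9.9% of all entries) and the median was 0.18. *Cacybp*, a partner of the ubiquitin ligase SIAH1, was at 54.6, 49.8 and 43.1 FPKM in MEC and 92.4, 89.9 and 91.9 in MEKO (0.89 ± 0.14, limma adjusted p = 0.0154). The 13 tested genes of the CCT chaperonin and prefoldin had a median of 0.33 with none called (9.9% of all entries). The groups did not overlap for 7 that were higher (18.5% of all entries) and 1 that was lower (18.7%). Of 9 tested chaperones outside the naming rule, only *Clu*, for the secreted chaperone clusterin, was called (11.1%, against 9.9% of all entries). It was lower, at 2387, 2676 and 2724 FPKM against 49.7, 43.9 and 114 (-5.34 ± 0.36, limma adjusted p = 0.00139). *Clu* was thus 37.5-fold lower in the mean of the lines, from a level in MEC above that of *Hsp90ab1*.

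Immediate early genes, which respond within minutes to stress and handling as well as to JNK and growth factors, were listed because culture and harvest can raise them. Of 13 tested, 5 were called lower in MEKO (7.26% of all entries) and 1 higher (2.64% of all entries). *Fos* was at 26.0, 23.4 and 27.2 FPKM in MEC and 3.83, 8.02 and 3.50 in MEKO, and *Jun* at 53.1, 58.9 and 60.3 against 10.5, 8.91 and 8.15. *Atf3*, *Dusp1* and *Ier3* were also lower, with *Klf4* called higher at 10.0, 12.3 and 7.83 against 30.5, 29.5 and 16.1. The part of this difference in the chaperone values was not tested. The summed *Hspa1a* and *Hspa1b* level overlapped between groups, as given above, and its relation to these genes was not tested.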

How the data were processed

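RNA from 3 MEC cultures and 3 MEKO tumor cell lines had been sequenced by the authors on an Illumina instrument. According to the submitters' processing notes and the study's methods, reads were aligned to GRCm38 with Bowtie2 and TopHat2 2.0.14 and quantified with Cufflinks 2.2.1. The deposited table holds FPKM per gene entry for each library, without counts, so depth and counting error cannot be computed from it.

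Members and companion lists were chosen with earlier results of these data known. Entries with a mean of at least 1 FPKM were tested with limma 3.58.1 (R 4.3.3) with a mean-variance trend on log2(FPKM + 1), MEKO minus MEC, 3 libraries a group. P-values were adjusted over all 12461 entries by the Benjamini-Hochberg method, and entries at an adjusted p under 0.05 and beyond 0.75 were called. The script was tested on simulated data. Single values and ratios were compared with exact permutation tests (two-sided). Compartments were assigned by hand. Positions came from GENCODE (GRCm38). Named genes were all called members, the 10 highest, the 4 with the largest fold change in each family and compartment, those at 1 FPKM in a library below the filter, called companion genes and a fixed list by role. Alternatives covered pseudocount, filter, scaling, sample weights and leaving out each library. A further 8 pseudogene names were left out.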

Additional observations from a re-analysis of the deposited data

How the results depend on the processing

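No paired analysis was possible because the MEC and MEKO libraries share no replicate numbers. Of the 15 alternatives, several moved the counts by over 1.5 times. With a filter at a mean of 5 FPKM, 738 entries and 2 members were called, 0 of them lower, since the 3 members called lower have lower means than that. Quantile normalisation gave 4 members higher and 1 lower, and upper-quartile scaling 5 lower. Sample weights, whose estimation stopped before its tolerance, gave 1978 entries, 1 member higher (*Hsph1*) and 6 lower. The cause of these changes was not tested. Leaving out 1 library at a time gave 259 to 1966 entries and 0 to 8 members, 0 to 3 higher and 0 to 5 lower. Without MEC 1 or MEC 2 no member was called and without MEC 3 only *Dnajc12*, with fewer libraries in the fit. Without line 199 there were 8, without line 336 only 3, none of them higher. *Dnajc22* was called without the filter and without line 336.

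Among the named members, 7 changed sign, none of them called in any fit run. *Dnaja4* was at -0.025 with upper-quartile scaling and -0.014 with sample weights, and at -0.19 to 0.22 with 1 library left out. *Dnajb11* was at -0.046 with quantile normalisation and -0.034 with upper-quartile scaling, and at -0.062 to 0.11 with 1 library left out. *Dnajc28*, at -0.55 as reported, was at 0.021 with quantile normalisation and *Hspa5* at 0.00049, and *Hspa1b* at -0.027 with sample weights. With 1 library left out, *Dnajb6* ran from -0.018 to 0.29, *Hspa13* from -0.16 to 0.0013 and *Hspa5* from -0.23 to 0.14. With 3 libraries a group and no counts, differences of single lines have no error, and low genes are the least certain.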
